A study of Arabidopsis thaliana with 3 samples.

Results

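The R2R3-type MYB genes of Arabidopsis thaliana were taken by name: all nuclear protein-coding genes with a symbol or synonym of MYB or AtMYB followed directly by a number, leaving out LHY, CCA1 and the RVE genes. This gave 125 genes of 27444 nuclear protein-coding genes, 116 of them by symbol and 9 by a synonym only. The names were not checked against protein sequences, so the R2R3 type of each gene rests on its name. DUO1, a pollen R2R3 MYB gene, carries no numbered MYB name in the gene table used and was not counted.

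R2R3 MYB proteins are plant transcription factors whose DNA-binding region holds a pair of imperfect MYB repeats. Many act as switches of a single branch of metabolism or cell fate, among them flavonols, anthocyanins, glucosinolates, lignin, suberin, wax, trichomes and pollen. Several work in complexes with bHLH and WD40 proteins, and several others carry responses to abscisic acid (ABA), drought, salt and cold. GAMYB-type members act in gibberellin responses of the seed and anther and are targets of the microRNA miR159.

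Binding of AtSDR4L, a transcriptional regulator related to a rice seed dormancy factor, was profiled by chromatin immunoprecipitation and sequencing (ChIP-seq). The material was whole seedlings of an AtSDR4L-HA line in which β-estradiol induces the HA-tagged protein, harvested 4 days after imbibition. The induced group had 2 replicates on 1 µM β-estradiol, and 1 uninduced sample of the same line, precipitated with the same HA antibody, served as the control for both. Every group therefore carried the inducible transgene, the labels name neither the promoter behind it nor the cells in which it is induced, and whole seedlings mix all tissues.

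The authors called peaks in each induced replicate against that 1 control. Replicate 1 had 9811 nuclear peaks and replicate 2 had 3423, and a deposited table paired peaks of both replicates into 1776 nuclear matched regions with an irreproducible discovery rate (IDR). A low IDR goes to regions that rank both high and alike in the lists, and a region ranked alike but low gets a high one. Fold enrichment is the authors' value at a peak's summit over the control, and −log10 q is their significance of that summit. The lists hold no read counts, so depth is unknown, and no list exists here for the control itself, so no member has a level in uninduced seedlings. A peak was given to a gene when its summit lay from 1000 bp outside either end of the gene through its body.

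The share of MYB genes with an AtSDR4L-HA peak was near that of all genes in each replicate alone, and below it for both replicates together, a gap that was not tested. In replicate 1, 43 of the 125 genes had a peak (34.4%, exact 95% binomial interval 26.1 to 43.4), where 36% of all nuclear protein-coding genes did. In replicate 2, 13 had one (10.4%, 5.65 to 17.1), against 13.6% of all genes. A peak in both replicates was present at 5 genes (4%, 1.31 to 9.09, against 8.88% of all genes), and 4 genes held a matched region (3.2%, 0.879 to 7.99, against 7.09%). None of these regions passed an IDR limit of 0.05, so 0 of 125 MYB genes were reached at that limit in the authors' deposited table. A count of 0 allows a share of up to 2.91% by the same interval, and only 0.506% of all genes were reached. These intervals treat genes as independent and cover counting error only. Shares near the background are no result about the MYB genes, and no test over samples was made, since the peak lists hold neither read counts nor control levels. For 74 of the genes neither list held a peak, and the 51 with a peak in either list (40.8%) came to nearly the 40.7% of all genes.

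**Figure D1:**
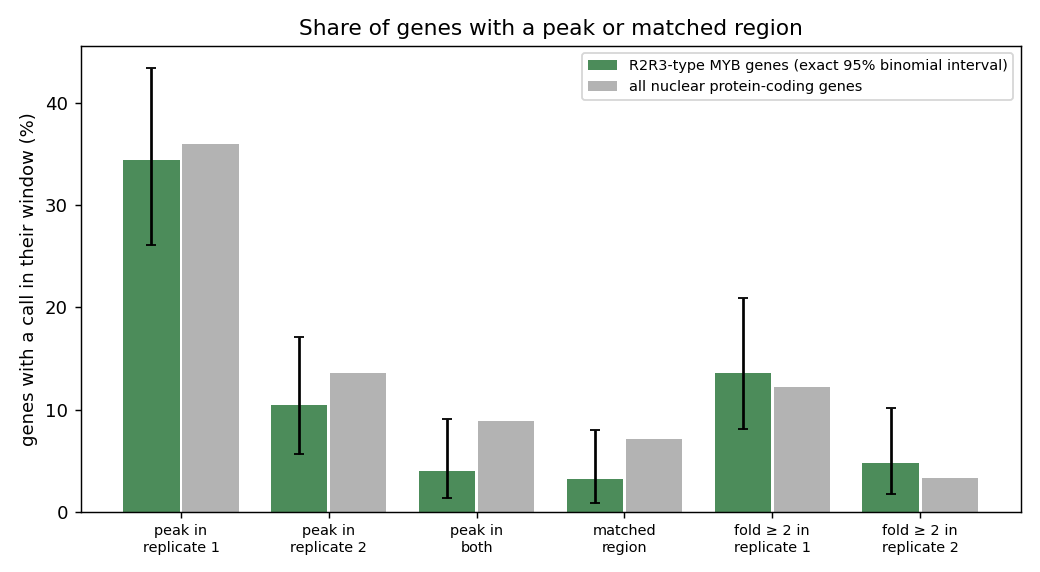
Bars give the percentage of genes with a peak or matched region in their window, for the 125 R2R3-type MYB genes (green, with exact 95% binomial intervals) and for all 27444 nuclear protein-coding genes (grey). The MYB share was 34.4% against 36% in replicate 1, and for matched regions it was 3.2% against 7.09%.

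Peak heights at the MYB genes had a median near that of all genes in replicate 1 and above it in replicate 2, with no test of either. Taking the highest fold per gene, the 43 genes of replicate 1 had a median of 1.85 (range 1.26 to 3.80), and all genes with a peak had 1.80. The 13 genes of replicate 2 had a median of 1.99 (1.11 to 2.91), against 1.71. A fold of at least 2 was reached by 17 MYB genes in replicate 1 (13.6%, against 12.2% of all genes) and by 6 in replicate 2 (4.8%, against 3.35%). A fold of at least 3 was reached by 6 in replicate 1 (4.8%, against 2.16%) and by 0 in replicate 2 (against 0.361%).

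The region with the lowest IDR among them lay beside MYB70. MYB70 (AT2G23290) belongs with MYB44, MYB73 and MYB77 to subgroup 22, a clade tied to ABA, auxin and stress responses. Its region at chromosome 2: 9906423-9906841 had a fold of 3.80 in replicate 1 and 2.12 in replicate 2, a mean of 2.96 ± 1.19 (SD, n = 2). Each replicate had a single summit there, the summits were 41 bp apart, and both lay between 501 and 1000 bp outside the gene with no other coding gene in reach. The replicate 1 summit ranked 194 by fold among the 9811 peaks of its list, with a −log10 q of 45.4, and the replicate 2 summit ranked 657 of 3423, with a −log10 q of 8.94. The authors' deposited table gave it an IDR of 0.0837, rank 264 of 1776 regions. Of the 125 genes, MYB70 alone passed an IDR limit of 0.1 in the authors' deposited table (0.8%, against 0.893% of all genes). Its subgroup was uneven: MYB44 (symbol MYBR1), a regulator of ABA responses in guard cells, had a peak of fold 1.11 in replicate 2 only, the lowest fold of that whole list. MYB77, which acts with auxin response factors, had folds of 1.26 and 1.14 in replicate 1 only, and MYB73 had none.

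MYB74 and MYB102, both of subgroup 11 and both induced by osmotic stress or wounding, also held matched regions. MYB74 (AT4G05100), linked to salt stress, was the only member with matched regions on either side of the gene. On one side, at chromosome 4: 2616908-2617752, the fold was 2.01 in replicate 1 and 1.99 in replicate 2, with the summits 14 bp apart. On the other side, at chromosome 4: 2619681-2620834, it was 3.21 and 1.66, with the summits 32 bp apart. Both pairs of summits lay between 501 and 1000 bp outside the gene, and the replicates gave nearly the same height on the first side and differed widely on the second. MYB102 (AT4G21440), linked to wounding and insect defence, had a wide replicate 1 peak of 2098 bp with 4 summits at chromosome 4: 11416285-11418382, the highest at a fold of 3.51 within 500 bp of the gene. Replicate 2 had a single summit there of fold 1.95, which lay 1173 bp from the highest one and outside the window. The deposited table places a region's summit midway between the highest-q summits of the replicates, within 1 bp in all 1784 regions, organelles included. For this region that midpoint falls inside the window, so MYB102 counts as matched although replicate 2 had no summit inside its window. Of the other subgroup 11 genes, MYB49 had folds of 1.77 and 1.63 in replicate 1 only, and MYB41, a regulator of suberin and cuticle, had no peak. This subgroup was singled out after the values were seen.

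For peaks like those of MYB74 and MYB102 the same table takes its position from the strongest summits but lists the q of the weakest. Where a peak held several summits, the authors' deposited table carried the lowest −log10 q among them, within 0.001, in all 526 such regions for replicate 1 and all 275 for replicate 2. For MYB102 the authors' deposited table carried 14.1 in place of 35.7. For MYB74 the authors' deposited table carried 9.02 in place of 28.9 on one side and 1.17 in place of 7.72 on the other. Their IDR values in the authors' deposited table were 0.171 for MYB102 and 0.332 and 0.649 for MYB74, the last being the highest value in the table, shared by 641 of the 1776 regions. What the IDR would be with the strongest summits was not tested. MYB70 and MYB111 had a single summit in each replicate.

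MYB111 (AT5G49330) held the only matched region with its summit inside a MYB gene. It encodes an activator of flavonol synthesis that works in parallel with MYB11 and MYB12. Its region at chromosome 5: 20000338-20000635 had a fold of 1.74 in replicate 1 and 2.07 in replicate 2, a mean of 1.91 ± 0.235 (SD, n = 2), and the authors' deposited table gave an IDR of 0.353. By the highest-q summits it was the only one of the 5 matched regions with a higher fold in replicate 2. The first MYB74 region was close to even, at 2.01 and 1.99, and the weaker replicate 1 summit used for it in the authors' deposited table had 1.43. MYB12 had folds of 2.20 and 1.95 at 2 peaks inside the gene, in replicate 2 only, and MYB11 had no peak in its window.

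The remaining pair of genes with a peak in both lists did not have them in the same place. MYB108 (BOS1), a gene of cell death control and stamen maturation, had a fold of 2.04 within 500 bp of the gene in replicate 1 and 1.49 inside the gene in replicate 2. MYB30, an activator of defence cell death and of very-long-chain fatty acid synthesis, had folds of 1.61 and 1.59 at its flanks in replicate 1 and 1.27 inside the gene in replicate 2. Requiring the peaks themselves to overlap left 3 of the 125 genes (2.4%, against 6.97% of all genes).

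**Figure D2:**
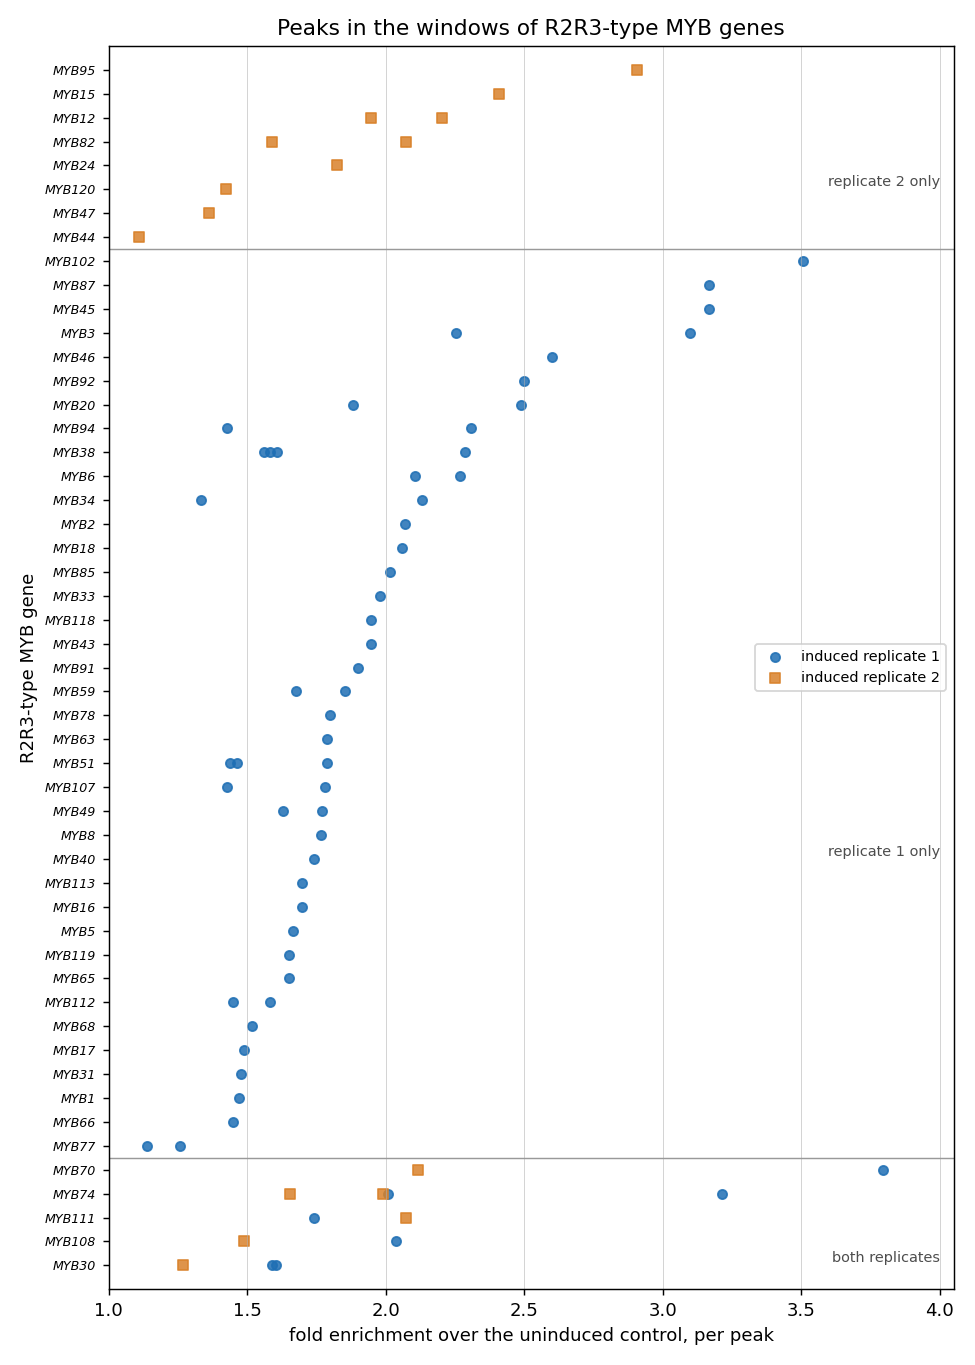
Each point is a peak in the window of a MYB gene, placed by its fold enrichment over the uninduced control (horizontal axis) for replicate 1 (blue circles) and replicate 2 (orange squares), with genes grouped by the replicates that had a peak. MYB70 lies farthest right with 3.80 in replicate 1, and the 5 genes with points of both colours are at the bottom.

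Most MYB peaks were seen in replicate 1 alone, at 38 genes (30.4%, against 27.1% of all genes). Apart from MYB102, the highest were beside MYB45 and MYB87, each with a fold of 3.17 and a −log10 q of 27.9. MYB45 belongs to the clade of LAF1 (MYB18), a factor of phytochrome A signalling, and its peak of 3224 bp at chromosome 3: 18136425-18139648 held 5 summits. MYB87, a relative of the axillary meristem genes RAX1 to RAX3, had a single summit at chromosome 4: 17757318-17757884. MYB3, a repressor of phenylpropanoid genes, had a fold of 3.10 at chromosome 1: 8005021-8005584 and a further peak of 2.25 within 500 bp of the gene. None of these peaks was overlapped by a replicate 2 peak.

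The next folds in the list of replicate 1 were lower. MYB46, a master switch of secondary wall formation, had 2.60, but its summit was nearer to DiT1. MYB92, a suberin regulator, had 2.50, with the summit nearer to AT5G10290. MYB20, an activator of lignin genes, had 2.49 and 1.88 at peaks of its own, and MYB94, an activator of cuticular wax synthesis, had 2.31 and 1.43. MYB38 (RAX2) had the most peaks of any member, 4 in replicate 1 with folds from 1.56 to 2.29, and 0 in replicate 2. Its peak of fold 1.58 had a summit nearer to AT2G36895. Identical folds recurred: 35 of the 60 MYB peaks in replicate 1 shared both fold and q with at least 1 other peak of that list, as MYB45 and MYB87 did. In replicate 2, 9 of 16 did. Such ties were not confined to MYB peaks, since as many as 93 peaks in replicate 1 had the same fold and q. The share of all peaks with a tie is not given here.

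Replicate 2 alone had peaks at 8 MYB genes (6.4%, against 4.71% of all genes). MYB95 and MYB15 stood out by q. The peak at MYB95 covered 3478 bp at chromosome 1: 27975486-27978963 with 6 summits, and its highest-q summit, inside the gene, had a fold of 2.91 and a −log10 q of 169.6. It ranked 24 by q but 136 by fold among the 3423 peaks, and AT1G74440 overlaps the same summit. The peak at MYB15, a regulator of cold responses and of defence lignin, covered 1864 bp at chromosome 3: 8309418-8311281 with a fold of 2.41 and a −log10 q of 105.5. Neither gene had any replicate 1 peak in its window. MYB82, a trichome gene, had folds of 2.07 and 1.59, MYB24, a jasmonate-responsive stamen gene, had 1.82, MYB120, a pollen tube gene, had 1.42, and MYB47 had 1.36. The MYB120 summit was nearer to AT5G55040.

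**Figure D3:**
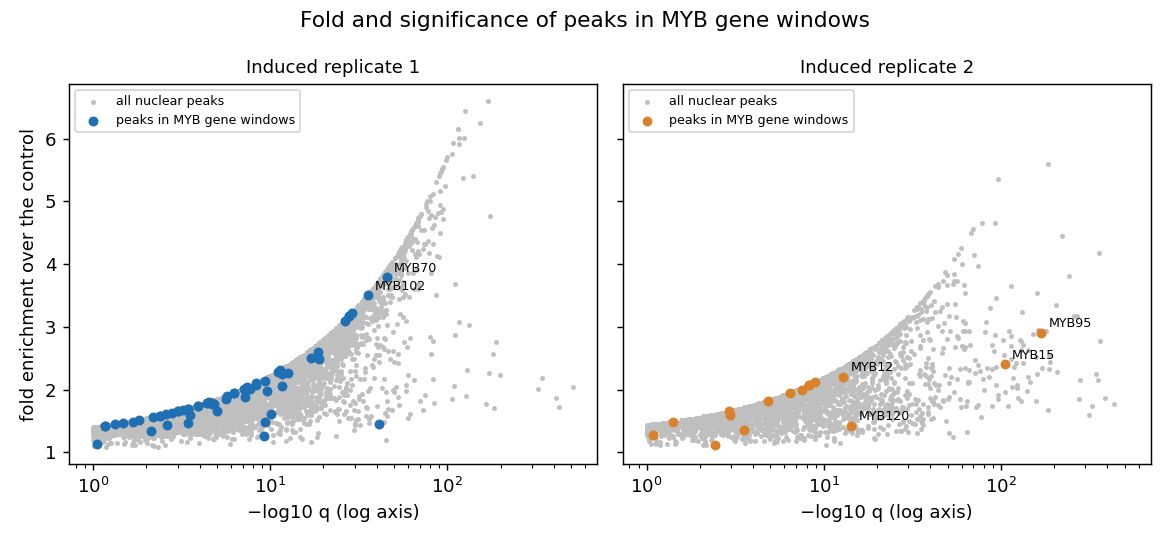
Every nuclear peak is a grey point by −log10 q (log axis) and fold enrichment, and the peaks in MYB gene windows are coloured, for each induced replicate. MYB70 and MYB102 lie at 3.80 and 3.51 in replicate 1, and MYB95 and MYB15 lie far to the right in replicate 2, at −log10 q of 169.6 and 105.5.

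Few MYB peaks of one replicate were overlapped in the other, which is given as a description with no test. In replicate 1, 5 of 60 MYB peaks (8.33%) were overlapped by a replicate 2 peak, against 17.1% of the 8493 peaks in the windows of all genes. In replicate 2, 4 of 16 (25%) were overlapped, against 48.6% of 3031. No peak was shared between MYB genes. Both lists were made against the same control.

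The place of the summits was described over pairs of gene and peak, with no test. In replicate 1, 16 of the 60 summits (26.7%) lay inside a MYB gene, 21 (35%) within 500 bp outside it and 23 (38.3%) between 501 and 1000 bp. Other genes had 34.2%, 47.3% and 18.5% of their 12610 pairs of gene and peak in these places. In replicate 2, 11 of the 16 summits (68.8%) lay inside, 1 (6.25%) within 500 bp and 4 (25%) farther out, where other genes had 45%, 38.2% and 16.8% of 4401 pairs. The share inside was thus higher in replicate 2 for other genes too. Counted per gene, a summit inside was found at 12 MYB genes in replicate 1 (9.6%, against 14.2% of all genes) and at 9 in replicate 2 (7.2%, against 6.39%), so the MYB share in replicate 2 was near the background. The highest peaks of MYB70, MYB74, MYB87, MYB3 and MYB46 in replicate 1 all lay between 501 and 1000 bp outside the gene, and those of MYB102 and MYB45 lay within 500 bp. Strand is not given in the gene table used, so upstream and downstream flanks could not be told apart.

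MYB genes also stand farther from their neighbours. The median distance to the nearest coding gene was 1147 bp for the MYB genes and 191 bp for all genes, and 46.4% of the MYB genes had another coding gene within 1000 bp, against 80.5% of all. Their spans were shorter, with a median of 1781 bp against 2078 bp. In replicate 1, another gene claimed the same summit in 28.3% of the MYB pairs, against 64.2% of all pairs, and the MYB gene was the nearest gene in 48 of 60. In 10 of the 43 genes with a replicate 1 peak, no peak had the MYB gene as its nearest gene. MYB66 (WEREWOLF), a root epidermis gene, was one of these: its peak had a fold of only 1.45 with a −log10 q of 41.3, and its summit was nearer to CA2. The part of gene spacing in the place and number of peaks was not tested.

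**Figure D4:**
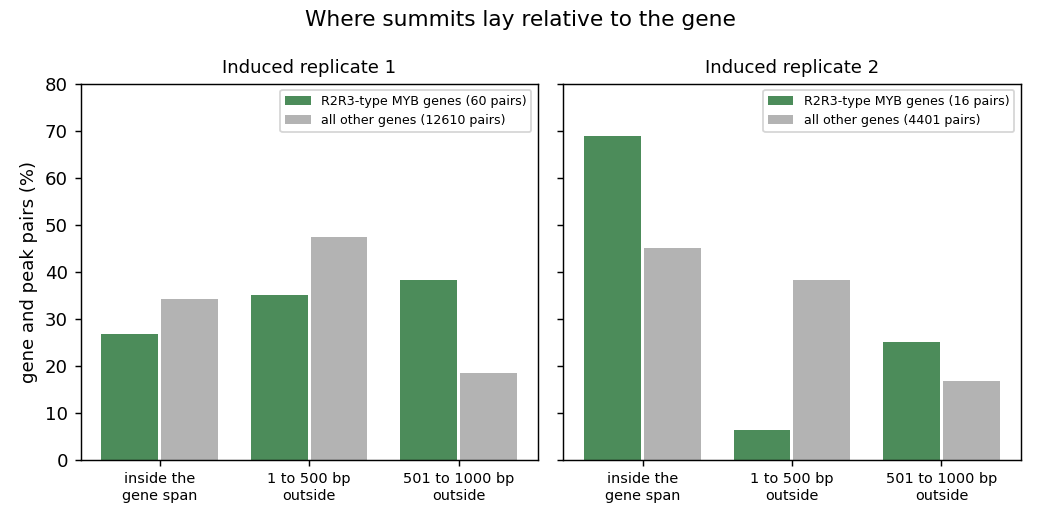
Bars give the percentage of gene and peak pairs whose summit lay inside the gene span, 1 to 500 bp outside it or 501 to 1000 bp outside it, for MYB genes (green) and all other genes (grey) in each induced replicate. In replicate 1 the outer flank held 38.3% of MYB pairs against 18.5%, and in replicate 2 the gene span held 68.8% against 45%.

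By role, peaks were scattered over most branches. Of 19 lists that together hold 95 of the genes, 16 had a member with a replicate 1 peak, 7 had one with a replicate 2 peak, and 2, the flavonol activators and subgroup 22, had one with a matched region. MYB74 and MYB102, which also held matched regions, are in none of these lists. How many lists would hold a peak at the shares of 36% and 13.6% of all genes was not tested. Counts below are too small to set any list apart from those shares.

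In the pigment branch, 1 of 5 anthocyanin and proanthocyanidin activators had a peak, MYB113 with a fold of 1.70 in replicate 1, while MYB75 (PAP1), MYB90 and MYB114 had none. Among 4 phenylpropanoid repressors, MYB3 had peaks and MYB4, MYB7 and MYB32 had none. Glucosinolate regulators had 2 of 6 in replicate 1. They were the indolic regulators MYB34 with 2.13 and 1.33 and MYB51 with 1.79, 1.46 and 1.44. The MYB51 summit of 1.79 was nearer to AT1G18560. MYB122, also of the indolic branch, had none, like MYB28, MYB29 and MYB76 of the aliphatic branch.

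In the wall and surface branches, the 14 secondary wall genes had 5 with a replicate 1 peak and 0 with a replicate 2 peak. These were MYB46, MYB20, MYB85 with 2.01, MYB43 with 1.95 and MYB63, an activator of lignin genes, with 1.79, and MYB26, MYB83 and MYB58 were among the 9 without. The wax, cuticle and stress list had 4 of 7 in replicate 1, adding MYB16 with 1.70 and MYB31 with 1.48 to MYB30 and MYB94. The MYB16 summit was nearer to AT5G15320. MYB96, which activates wax synthesis and ABA responses, had none in either list, like MYB60 and MYB106. The suberin list had 2 of 7 in replicate 1, MYB92 and MYB107 (1.78 and 1.43).

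Among stress and hormone genes, 4 of 6 had a replicate 1 peak: MYB2, an ABA and drought regulator, with 2.07 inside the gene, MYB108, MYB78 with 1.80 and MYB112 with 1.58 and 1.45. MYB62 and MYB116 had none. Of the GAMYB list, 2 of 7 had a replicate 1 peak, MYB33 with 1.98 inside the gene and MYB65 with 1.65 at its flank, and MYB120 had one in replicate 2. MYB101, which acts with MYB33 in ABA responses of germinating seeds, had none, like MYB81 and MYB97. In the cold and defence list, MYB15 had a peak and MYB13 and MYB14 had none.

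Development genes gave a similar picture. The axillary meristem and endodermis list had 3 of 6 in replicate 1, MYB38, MYB87 and MYB68 (1.52), and MYB36, MYB37 and MYB84 had none. In the epidermal list, MYB66 had a peak, and MYB0 (GLABRA1) and MYB23 had none. Of the 6 gametophyte and embryo genes found, 2 had a replicate 1 peak: MYB118, a regulator of endosperm maturation, with 1.95 and MYB119 with 1.65, both nearer to another gene, while MYB98, MYB64 and MYB115 had none. The light list had MYB45 and MYB18 (2.06), the latter with its summit nearer to AT4G25550. The root and cell cycle list had MYB59 with 1.85 and 1.67, and the organ boundary list had MYB91 (AS1), a leaf polarity gene, with 1.90. The stamen list had MYB24 in replicate 2 only. The 2 guard cell genes, MYB88 and MYB124, had no peak. Among the 30 genes in no list, besides those described above, MYB6 had 2.27 and 2.10, MYB8 (HOS10) had 1.76, MYB40 had 1.74, MYB5, a seed coat and trichome gene, had 1.67, MYB17 had 1.49 and MYB1 had 1.47, each in replicate 1 only. The summits at MYB40, MYB5 and MYB17 were nearer to ENODL21, MAPKKK7 and AT3G61240.

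**Figure D5:**
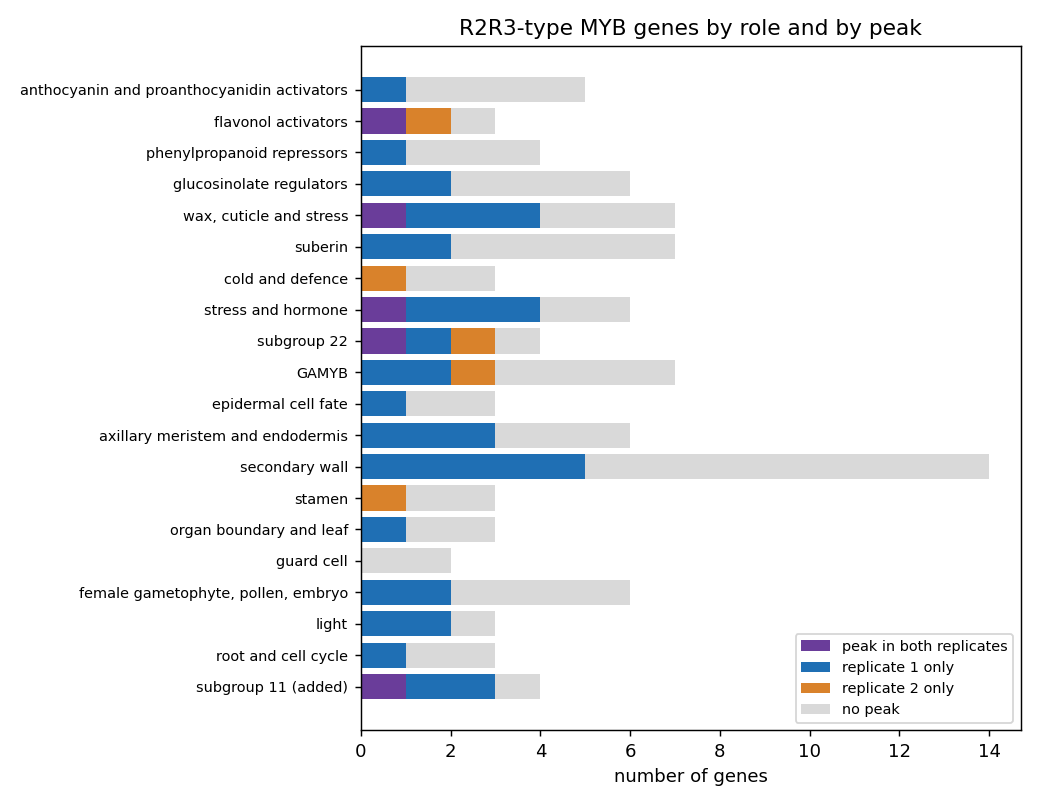
Stacked bars count the genes of each role list by where a peak was found: both replicates (purple), replicate 1 only (blue), replicate 2 only (orange) or neither (grey). The 14 secondary wall genes show 5 in replicate 1 only, and subgroup 11 was added after the values were seen and shares MYB41 with the suberin list.

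The window's limit decided several cases. In replicate 1, MYB31 (1.48), MYB74 (2.01) and MYB91 (1.90) were the genes nearest to the limit on the inside, and MYB60 (1.88), MYB11 (2.53) and MYB14 (1.43) were those nearest on the outside. In replicate 2, MYB74 (1.99) and MYB24 (1.82) were the nearest inside, and MYB8 (1.78), MYB102 (1.95) and MYB1 (1.97) the nearest outside. Up to 2000 bp from a gene, 4 further genes had a matched region, making 8 (6.4%, against 9.67% of all genes). The nearest of the 4 were MYB8 (2.07 in replicate 1 and 1.78 in replicate 2) and MYB1 (2.44 and 1.97), with IDR values of 0.235 and 0.167 in the authors' deposited table. A window of 500 bp left 26 MYB genes with a replicate 1 peak (20.8%, against 30.8% of all genes). With 2000 bp there were 62 (49.6%, against 43.7%). When a summit counted for its nearest gene alone, at any distance, there were 43 (34.4%, against 27.5%). The MYB share thus stood below that of all genes in the first case and above it in the others. The nearest-gene count is not a stricter form of the main one. Only 33 MYB genes were the nearest gene to a summit within 1000 bp, and the rest of these 43 were reached by farther summits alone.

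Genes that work with R2R3 MYB proteins also had scattered peaks. Of 11 bHLH, WD40 and R3 MYB partner genes, 5 had a replicate 1 peak and 1 a replicate 2 peak, beside 36% and 13.6% of all genes, and numbers this small set nothing apart. The last was MYBL2, a repressor of anthocyanin synthesis, whose matched region had folds of 2.02 and 1.84 and, in the authors' deposited table, an IDR of 0.268. For replicate 2 that table took the q of a weaker summit there, of fold 1.53. GL3 (1.65), CPC (1.86), ETC1 (1.51) and CPL3 (1.46) had peaks in replicate 1 only, and TT8, EGL3 and TTG1 had none. Of 8 flavonoid enzyme genes, 3 had a replicate 1 peak and 1 a replicate 2 peak, with the same shares of all genes beside them. They were TT7 (2.09), which also had 1.43 in replicate 2, FLS1, the flavonol synthase, with 2.49, and F3H with 1.43.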

How the data were processed

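ChIP-seq peak lists of 2 induced replicates, each called against 1 uninduced control, were analysed. Per the series' design text, the authors called peaks with MACS2 2.2.7.1 from adapter-trimmed paired-end reads. bcl2fastq 2.20, Bowtie2 2.3.5.1, SAMtools 1.7 and TAIR10 are named in the submitters' processing notes. Neither the read filters nor how IDR was run is stated in these sources. Each deposited list gives a score, a fold enrichment ratio, −log10 p and q values and summit positions, and lists only peaks with q below about 0.1. The deposited IDR table gives a scaled score, −log10 q and −log10 IDR per region.

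Rows with the same start and end were merged to 1 peak at the summit of the highest q, from 12865 rows in replicate 1 and 4502 in replicate 2. Folds of matched regions are those of that summit in each replicate. Genes came from a RefSeq table of TAIR10.1 without strand or sequence. Since the files use TAIR10, it served only for names, spacing and which gene lies at a summit. A planned description of promoter motifs was not made, because no promoter sequence was used here. Counts of genes are set beside those of all 27444 nuclear protein-coding genes, with no test, since only peak lists without read counts or control levels were used. The replicates are called biological by the series' design text.

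The genes and role lists were chosen with earlier results of these data known. Named genes are those with a matched region, up to 8 per replicate with the highest fold among genes with a peak in that replicate only, up to 3 just outside the window, and up to 3 without a peak per role list. Genes with a peak in a role list were named with it. MYB66, MYB38, MYB49, MYB73, MYB122 and DUO1 were named after their values or names were seen. So were MYB5, MYB6, MYB17 and MYB40, which had a peak but are in no role list. Window searches were tested on simulated summits. Alternatives covered the window, gene assignment, names, thresholds, summits and overlap. Work was done in Python 3.11.15 with numpy 2.4.6, pandas 2.3.3, matplotlib 3.10.9 and scipy 1.17.1.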

Additional observations from a re-analysis of the deposited data

How the results depend on the processing

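In the authors' deposited table no MYB gene reached an IDR of at most 0.05 with a window of 2000 bp (against 0.805% of all genes). None did with the nearest gene (against 0.612%), and 1 did at an IDR of at most 0.1 (0.8%, against 0.893%). A window of 500 bp, symbols only and an IDR limit of 0.01 also gave 0. Since the main count was 0, these narrower settings could give nothing else. With a 500 bp window 26 genes had a peak in replicate 1 (20.8%, against 30.8% of all genes) and 3 in both replicates (2.4%, against 6.95%). There 1 gene had a matched region (0.8%, against 5.68%), and the replicate 2 median fold was 1.78. With 2000 bp, 11 had a peak in both (8.8%, against 12.5%), 8 a matched region (6.4%, against 9.67%), and that median was 1.82. In replicate 1 the share with a peak turned from below to above that of all genes at 2000 bp (49.6%, against 43.7%). It did so too with the nearest gene at any distance (34.4%, against 27.5%). The nearest gene gave 8 in both (6.4%, against 7.01%) and a replicate 1 median of 2.04. At a −log10 q of at least 5 the counts were 26, 8 and 2 for replicate 1, replicate 2 and both, with medians of 2.10 and 2.10. At a fold of at least 2 they were 17 (13.6%, against 12.2%), 6 (4.8%, against 3.35%) and 1, with medians of 2.49 and 2.16. Under either limit fewer peaks enter by construction. The count for both replicates was 3 when peaks had to overlap (2.4%, against 6.97%) and 2 at 50% of each. No share of all genes is given here for the counts under the q limit, for both replicates under the fold limit, or at 50% overlap. Without replicate 1 or replicate 2 the single lists gave 13 and 43. Of 53 alternative values, 29, among them any overlap of the peak interval (chosen after seeing the data), stayed within 1.5 times of the count or within 0.0984, the SD of the 2 replicate medians. These 29 include values given above, such as the replicate 1 counts of 62 at 2000 bp and 43 with the nearest gene, and the latter need not be the same genes as in the main window. They also include the counts of 0 that could not have differed, so the tally is no measure of stability. For other shifts the cause was not tested. No paired analysis was possible because the only control is 1 sample. A peak list says nothing of regions below its limit, and depth is unknown.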

Other observations

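Genes named MYB that fall outside the numbered family, picked by name after the gene table was seen, were looked up in the same window. Of 10 such genes, 7 had a replicate 1 peak, 2 a replicate 2 peak, and 2 both, beside 36%, 13.6% and 8.88% of all genes; with 10 genes picked by name these counts set nothing apart. MYBC1, a regulator of freezing tolerance outside the R2R3 type, had a fold of 3.91 in replicate 1 and 2.33 in replicate 2 between 501 and 1000 bp outside the gene, beside 3.80 and 2.12 at MYB70. Its matched region was listed in the authors' deposited table at an IDR of 0.649, the highest value there. For replicate 1 that table took the q of a weaker summit in this region, of fold 1.40, as it did for MYB74 and MYB102. What the IDR would be with the strongest summit was not tested. The cell cycle genes of the MYB3R type had folds of 1.85 for MYB3R-3, 1.59 for PC-MYB1 and 1.61 for MYB3R-5 in replicate 1 and no peak in replicate 2, while MYB3R2 and MYB3R-4 had none in either list. Outside that type, AT5G47390 had 3 peaks of fold up to 2.13 and MYB4R1 had 1.43, both in replicate 1 only. CDC5 had no peak in either list.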
